A study of Mus musculus with 16 samples.

Results

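The genes described here are 10 components of B cell receptor (BCR) signaling, chosen by symbol: the signaling chains Cd79a and Cd79b, the kinases Lyn, Syk and Btk, the adaptor Blnk, the phospholipase Plcg2, and the inhibitory proteins Cd22, Cd72 and Ptpn6. Every one of the 10 was found once among the 51912 genes of the deposited table, and all 10 passed the filter on low values, a mean normalized count of at least 10. The cells were splenic germinal center (GC) B cells (B220+ CD38low CD95+ cMycGFP+) of cMyc gfp/gfp reporter mice, which carry a GFP-cMyc fusion in place of endogenous cMyc, so every group shared this allele and every cell was gated as cMyc+. Male and female animals of 6 to 15 weeks had received sheep red blood cells (SRBC) 7 days before the sort, and no unimmunized or cMyc-negative sample entered the comparisons below. The 4 subpopulations, with 4 libraries each, were cMyc+ prePB (CD69hi), cMyc+ early (CD23hi CD21/35hi), cMyc+ lateCD23int (CD23int CD21/35int) and cMyc+ lateCD23lo (CD23lo CD21/35lo). The labels number the libraries of each group 1 to 4 and do not say whether a library holds 1 animal or several, or whether equal numbers share an animal, so the p-values measure the spread between these libraries, which may be technical.

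As background, the antigen-binding immunoglobulin signals through the CD79A and CD79B chains, whose intracellular tyrosine motifs are phosphorylated by Src-family kinases such as LYN and then recruit SYK. SYK, BTK and the adaptor BLNK bring phospholipase C gamma 2 to the membrane, which opens the calcium and protein kinase C arms of the pathway. CD22 and CD72 are inhibitory receptors that recruit the phosphatase SHP-1, the product of Ptpn6, and GC B cells are known for a damped receptor response.

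The tyrosine codons through which these chains are read are shown first, since they separate the activating members of the list from the inhibitory ones. The coding stretches below come from GENCODE transcripts (GRCm38), were found by a script in the translated coding sequence, and carry the codons of the motif tyrosines in capitals. The activation motifs of both signaling chains (2 tyrosines each) span 45 bases, that of Cd79a from exon 4 into exon 5 of 5 (chr7:24901296-24901469, plus strand, the intron included in the coordinates) and that of Cd79b from exon 5 into exon 6 of 6 (chr11:106311867-106312012, minus strand, likewise).
Cd79a: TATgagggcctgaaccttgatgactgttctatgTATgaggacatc
Cd79b: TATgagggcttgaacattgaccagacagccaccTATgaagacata

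The inhibitory motifs have 1 tyrosine each and span 18 bases. Cd22 had 4 of them after its membrane span, in exons 12, 13 and 14 of 14 (minus strand of chromosome 7, the outermost at 30867494 to 30867511 and at 30866540 to 30866557), and Cd72 had 2 before its membrane span, in exons 1 and 2 of 9 (minus strand, chr4:43454498-43454515 and chr4:43454306-43454323).
Cd22, exon 12: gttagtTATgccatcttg
Cd22, exon 13: gtcactTACtcggtgata
Cd22, exon 14: atccatTACtcagagctg
Cd22, exon 14, nearest the end: gtagacTATgtgaccctc
Cd72, exon 1: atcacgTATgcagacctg
Cd72, exon 2: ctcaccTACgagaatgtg

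The values are normalized counts, that is, read counts per gene divided by 1 size factor per library. The libraries held 19812080 to 25795815 reads on genes, and the smallest count behind any value of the 10 genes was 1048 reads (Syk), for which counting alone gives a relative error of 3.09%, so the spread between libraries given below is far above the counting error. Among the genes of the gates, Fcer2a, which encodes CD23, was 9454 to 17966 in cMyc+ early, 4739 to 15019 in cMyc+ lateCD23int and 1285 to 3953 in cMyc+ lateCD23lo. Cd69 RNA did not set the CD69hi gate apart (2439 to 5346 in cMyc+ prePB and 1451 to 6126 in the other 3 groups). Of the 9 T cell markers, Cd3e, Cd3d, Cd3g, Cd4, Cd8a, Thy1, Cd28 and Bcl11b stayed at or below 106 in every library, while Lck was 2157 to 6839.

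Per kilobase of annotated exon, the 10 genes ran over a range of levels from Cd79b to Syk. The mean over the 16 libraries was 19438 ± 7037 (SD) normalized counts per kilobase for Cd79b and 17368 ± 2952 for Cd79a, the receptor chains, and these neighbors overlapped within 1 SD. Cd72 (5036 ± 1891) and Ptpn6 (3516 ± 1027) came next and also overlapped, followed by Blnk at 1853 ± 161, which overlapped with neither neighbor. Lyn (840 ± 187), Cd22 (763 ± 327), Btk (673 ± 132) and Plcg2 (616 ± 86.5) formed a run in which each overlapped with the next, and Syk, the kinase that docks on the phosphorylated chains, was lowest at 199 ± 44. The exonic length is the union over all annotated transcripts of a gene, from 1431 bases for Cd79b to 9362 for Syk.

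**Figure D1:**
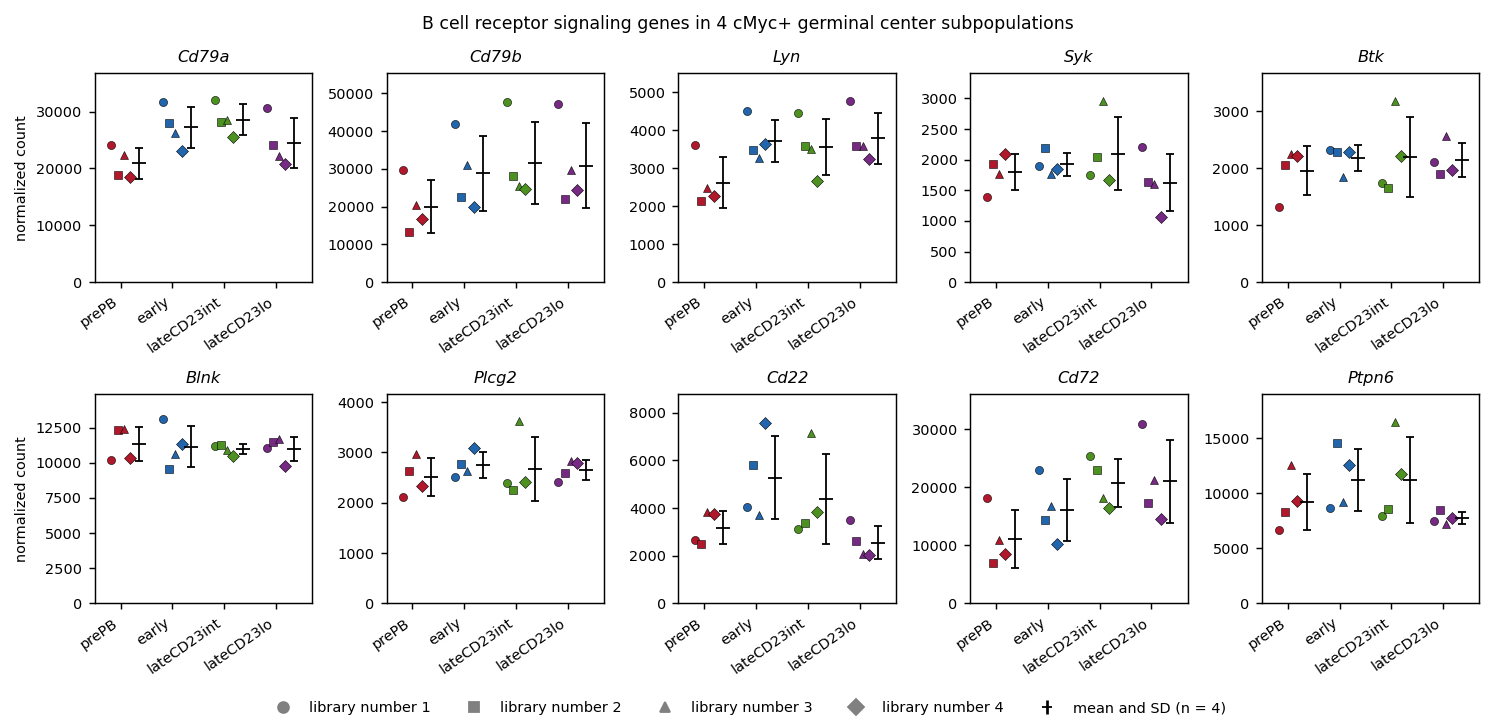
Normalized counts (linear axes from 0) of the 10 B cell receptor signaling genes in each of the 16 libraries. Each point is 1 library, its shape gives the library number, and the bar gives the mean and SD of the 4 libraries of a subpopulation. Cd79a, Cd79b, Lyn and Cd72 were lowest on average in cMyc+ prePB and highest in the number 1 library of each group. Btk and Plcg2 were also lowest on average in cMyc+ prePB, whereas Blnk stayed between 9563 and 13093.

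The first question was whether any member differed over the 4 subpopulations. In the fit without the library number, none of the 10 passed the moderated F test of limma at an adjusted p under 0.05, against 0.408% of the 12505 tested genes. At an unadjusted p under 0.05 there were 4, Cd22 (adjusted p = 0.284), Cd72 (adjusted p = 0.317), Cd79a (adjusted p = 0.424) and Lyn (adjusted p = 0.461), against 10.2% of all tested genes. The quasi-likelihood test of edgeR on the recovered reads also called 0 members (3 at an unadjusted p under 0.05), and DESeq2 called 1, Cd22 (adjusted p = 0.0486). Of the spread of Cd22 over the 16 libraries on the log2 scale 51.8% lay between subpopulations, of that of Cd79a 51.8%, of Cd72 48.1% and of Lyn 46.2%, whereas the median of all tested genes was 21.3% and the 95th percentile 53.9%. Blnk, with 2.09%, had the smallest such share of the 10 members.

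In cMyc+ prePB the mean of the signaling chains, of Lyn and of Cd72 was below that of each other subpopulation. The means of Btk and Plcg2 were also lowest there, with smaller differences from the mean of the other 3 (-0.16 and -0.10). The share of all tested genes with their lowest mean in cMyc+ prePB was not counted. Against the mean of the other 3 subpopulations, 4 of the 10 members had an unadjusted p under 0.05 and a lower level in cMyc+ prePB, against 11.1% of all tested genes in either direction. These 4 (Cd79a, Cd79b, Lyn and Cd72) varied together over the 16 libraries (r = 0.812 to 0.927), so they are not independent results. The members were chosen with earlier results of these data known. In the fits without the library number 0 passed an adjusted p under 0.05 (0.312% of all tested genes, and 0 in edgeR and 0 in DESeq2). Fits with that number as a block called members, as given in the part on processing. The median difference of the 10 members was -0.21 on the log2 scale, beside 0.003 for all tested genes. Marker sums of B cells moved with these genes. The mean sum of 8 GC B cell markers was 30396 for cMyc+ prePB against 34624 for cMyc+ early, 45876 for cMyc+ lateCD23int and 48082 for cMyc+ lateCD23lo, and that of 6 markers of all B cells, which include Cd79a and Cd79b, was 108722, 142457, 166910 and 143668. Their part in the differences was not tested. All differences in this text are on the scale of log2(normalized count + 1).

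Cd79a (chr7:24897381-24902197) encodes the Ig alpha chain of the receptor. Its 4 libraries were 24042, 18860.3, 22340.3 and 18438 in cMyc+ prePB, 31676, 28067, 26212 and 23089.7 in cMyc+ early, 32113, 28128, 28487 and 25452 in cMyc+ lateCD23int, and 30711, 24212, 22251 and 20812 in cMyc+ lateCD23lo, in the order of the library numbers. All 4 cMyc+ prePB libraries were below all 4 cMyc+ lateCD23int libraries, a separation that 5.21% of all tested genes showed in 1 direction or the other, while the other groups overlapped with cMyc+ prePB. The difference between cMyc+ prePB and cMyc+ lateCD23int was -0.45 ± 0.15 (SE; limma adjusted p = 0.338), and that from the mean of the other 3 was -0.35 ± 0.12, a fold of 0.784 with a 95% interval of 0.659 to 0.931 (adjusted p = 0.257).

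Cd79b (chr11:106311341-106314762) encodes the Ig beta chain. It was 29719, 13399.7, 20400 and 16692 in the cMyc+ prePB libraries and 41858, 22468, 31075 and 19870.2 in those of cMyc+ early. The values were 47696, 28037, 25474 and 24805 in cMyc+ lateCD23int and 47149, 22126, 29825 and 24464 in cMyc+ lateCD23lo. The number 1 library was the highest of its group in all 4 groups, and that of cMyc+ prePB lay among libraries of other numbers in the other groups. Within each number the cMyc+ prePB library was the lowest, as it was for Lyn and Cd72 and for 2.06% of all tested genes. The differences given for Cd79a, Cd79b, Lyn and Cd72 are from the fit without the library number. The difference of cMyc+ prePB from the mean of the other 3 was -0.60 ± 0.24, a fold of 0.659 with an interval of 0.468 to 0.928 (limma adjusted p = 0.343).

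Lyn (chr4:3678115-3813122), the Src-family kinase that phosphorylates both the activating and the inhibitory motifs, was 3603, 2142, 2475 and 2269.6 in cMyc+ prePB. It was 4511, 3467, 3262 and 3634 in cMyc+ early, 4457, 3579.6, 3514 and 2661 in cMyc+ lateCD23int, and 4768, 3571, 3577 and 3239 in cMyc+ lateCD23lo. Apart from library 1, the cMyc+ prePB libraries lay below every library of the other groups. The difference from the mean of the other 3 was -0.51 ± 0.16, a fold of 0.705 with an interval of 0.559 to 0.888 (limma adjusted p = 0.217).

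Cd72 (chr4:43446462-43454628), the inhibitory receptor with its motifs at the amino-terminal end, had the largest difference of the 10 in this comparison. Its cMyc+ prePB libraries were 18222, 6888, 10882 and 8527, those of cMyc+ early 22937, 14282, 16692 and 10147.7, those of cMyc+ lateCD23int 25444, 22912, 18229 and 16498, and those of cMyc+ lateCD23lo 30924, 17288, 21299 and 14574. Library 1 of cMyc+ prePB was higher than 2 of the 4 libraries of cMyc+ lateCD23lo, and the other cMyc+ prePB libraries were lower than all of them. The difference from the mean of the other 3 was -0.83 ± 0.24, a fold of 0.561 with an interval of 0.398 to 0.792 (limma adjusted p = 0.158), and against cMyc+ lateCD23lo it was -0.96 ± 0.29 (adjusted p = 0.183). Without library 1 of cMyc+ prePB these became -1.10 (adjusted p = 0.0358) and -1.23 (adjusted p = 0.0383), and with the number 1 library left out of all 4 groups, an alternative chosen after seeing the data, -0.94 (adjusted p = 0.0330) and -1.02 (adjusted p = 0.0347). Leaving out library 1 of cMyc+ prePB also raised the calls over all tested genes, from 39 to 79 against the mean of the other 3 and from 33 to 153 against cMyc+ lateCD23lo. Exons of Cd72 share 1423 bases with the gene Tesk1 on the opposite strand, which had a mean of 12.02.

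The number 1 libraries were the highest of their group in all 4 groups for Cd79a, Cd79b, Lyn and Cd72, and for none of the other 6 members. This held for 4.23% of all tested genes. The same libraries had the highest share of mitochondrial reads of their groups (1.83, 1.87, 2.95 and 2.26% in cMyc+ prePB, early, lateCD23int and lateCD23lo, against 1.339 to 1.898% in the other 12 libraries) and of immunoglobulin reads (2.65, 1.69, 1.72 and 1.95%). In cMyc+ prePB the correlation of gene deviations with GC content was -0.166 in library 1 and 0.136 to 0.297 in libraries 2 to 4. It was -0.178 in library 1 and -0.0987 to 0.224 in libraries 2 to 4 of cMyc+ early, and -0.213 and -0.186 to 0.254 in cMyc+ lateCD23int. In cMyc+ lateCD23lo library 1 (-0.0942) lay within libraries 2 to 4 (-0.173 to -0.0353), so this measure did not set number 1 apart in every group. The part of these measures in the levels was not tested. Ms4a1, which encodes the B cell surface protein CD20 and was the non-member gene most like Cd79b (Pearson r = 0.952 over the 16 libraries, a description), was likewise highest in library 1 of each group (74909, 93658, 144160 and 99567). The summed level of 8 GC B cell markers was highest of each group in the same libraries, at 41449, 44333, 64289 and 55071, against 24921 to 52668 in the others, and its part in these differences was not tested. Since the samples were bulk sorts, fewer cells of a kind and less RNA per cell cannot be told apart.

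The upstream stretches of Cd79a and Cd72, members of this set with an entry in the RefSeq promoter table (GRCm38.p6), are given up to the first annotated exon base, with motif letters in capitals.
Cd79a, chr7:24897247-24897380, plus strand: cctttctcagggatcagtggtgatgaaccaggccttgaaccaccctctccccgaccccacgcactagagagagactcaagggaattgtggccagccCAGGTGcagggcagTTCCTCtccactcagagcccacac
Cd72, chr4:43454629-43454876, minus strand: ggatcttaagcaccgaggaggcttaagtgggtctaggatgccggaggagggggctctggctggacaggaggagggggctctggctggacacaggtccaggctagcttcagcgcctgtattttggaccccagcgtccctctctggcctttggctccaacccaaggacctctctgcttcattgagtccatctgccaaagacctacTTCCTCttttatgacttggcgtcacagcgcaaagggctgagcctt

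Among the promoters, 4 motifs of B lineage factors were searched on both strands, the octamer ATGCAAAT, the EBF motif (TCCC and GGGA with 2 bases between), the PU box GAGGAA and the E box CAGGTG. The search covered the 250 bases before the RefSeq start, which for Cd79a lies inside the first exon of GENCODE, so that 134 of the 250 bases searched are the ones printed. In its window Cd79a had 1 E box and 1 PU box and Cd72 had 1 PU box, and neither had the exact octamer or EBF letters. Sites of these factors with other letters were not searched, so a missing match does not show that a site is absent. Over all 32851 promoters, 23.3% held the PU box, 17.2% the E box, 1.6% the octamer and 0.779% the EBF letters, so the matches are a description of these windows and no more. Of the 8 members with an entry, Cd22 was the 1 that held the EBF letters and Blnk the 1 that held the octamer.

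**Figure D2:**
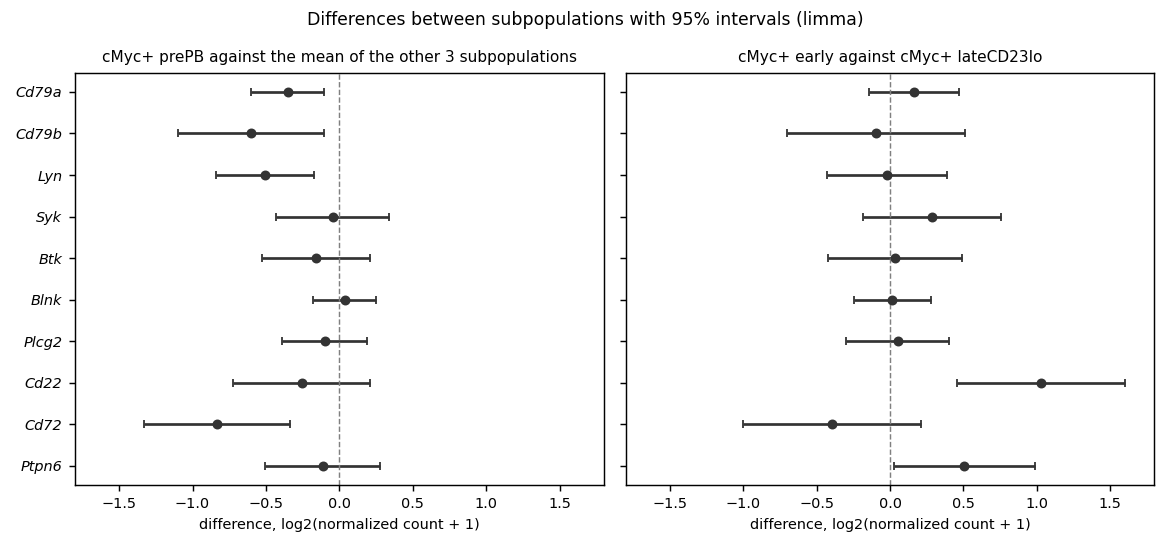
Differences in log2(normalized count + 1) of the 10 genes between cMyc+ prePB and the mean of the other 3 subpopulations (left) and between cMyc+ early and cMyc+ lateCD23lo (right), with 95% intervals from limma. Points left of the dashed line are lower in the subpopulation named first. Cd72 (-0.83) lies furthest from 0 on the left and Cd22 (1.03) on the right.

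Each pairwise comparison gave 0 members at an adjusted p under 0.05 in limma. All counts in this paragraph, those of edgeR and DESeq2 included, are from fits without the library number. Between cMyc+ prePB and cMyc+ early the members with an unadjusted p under 0.05 were 3 (Cd79a, Lyn and Cd22, all lower in cMyc+ prePB; 8.58% of all tested genes, and 0.192% after adjustment), and edgeR and DESeq2 called 0. Between cMyc+ prePB and cMyc+ lateCD23int they were 4 (Cd79a, Cd79b, Lyn and Cd72, all lower; 8.77% and 0.144% of all tested genes), with 0 calls by either other tool and with Cd72 at -0.98 ± 0.29 (limma adjusted p = 0.265). Against cMyc+ lateCD23lo they were 3 (Cd79b, Lyn and Cd72, all lower; 12.7% and 0.264%), again with 0 calls by edgeR and DESeq2. Between cMyc+ early and cMyc+ lateCD23int there were 0 by any of the tools (3.71% and 0.008% of all tested genes), and between cMyc+ lateCD23int and cMyc+ lateCD23lo there was 1, Cd22 (6.28% and 0.008%), with 0 calls by edgeR and DESeq2. The comparisons with cMyc+ prePB share its 4 libraries, so their counts are not independent of each other.

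Cd22 and Ptpn6 had another order, with the lowest mean in cMyc+ lateCD23lo. Between cMyc+ early and cMyc+ lateCD23lo they were the 2 members with an unadjusted p under 0.05, both higher in cMyc+ early (10.3% of all tested genes), and 0 members passed after adjustment (0.28% of all tested genes) in limma and edgeR, while DESeq2 called 1, Cd22. They were also the 2 members whose cMyc+ early and cMyc+ lateCD23lo libraries did not overlap, as was the case for 6.23% of all tested genes.

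Cd22 (chr7:30865402-30880342), a sialic acid-binding receptor whose motifs dock the phosphatase SHP-1, was 4058, 5793, 3727 and 7550.3 in cMyc+ early and 3487, 2605, 2067 and 2043 in cMyc+ lateCD23lo. It was 2657, 2493, 3844 and 3734 in cMyc+ prePB and 3135, 3359.7, 7164 and 3835 in cMyc+ lateCD23int, where library 3 stood far above the other 3. The difference between cMyc+ early and cMyc+ lateCD23lo was 1.03 ± 0.27, a fold of 2.04 with an interval of 1.37 to 3.03 (limma adjusted p = 0.159, DESeq2 adjusted p = 0.0219). That between cMyc+ lateCD23int and cMyc+ lateCD23lo was 0.73 ± 0.27 (limma adjusted p = 0.715; 0.46 without library 3 of cMyc+ lateCD23int), and that between cMyc+ prePB and cMyc+ early -0.70 ± 0.27 (adjusted p = 0.482). Its difference of cMyc+ prePB from the mean of the other 3, -0.26 ± 0.22, had an interval that included 0.

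Ptpn6 (chr6:124720707-124738714) was 8641, 14576, 9174 and 12586 in cMyc+ early and 7456, 8527, 7219.7 and 7770.2 in cMyc+ lateCD23lo, so the groups were separated by a narrow gap between 8527 and 8641. In cMyc+ prePB it was 6630.1, 8274, 12626 and 9288, and in cMyc+ lateCD23int 7961, 8624, 16481 and 11792, with library 3 highest in both. The difference between cMyc+ early and cMyc+ lateCD23lo was 0.51 ± 0.23, a fold of 1.42 with an interval of 1.02 to 1.98 (limma adjusted p = 0.452). Cnr2, the gene for cannabinoid receptor 2, was the tested gene most like Cd22 (r = 0.904), and S1pr3 was most like Ptpn6 (r = 0.947).

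Marker lists of other cell types differed between the same 2 groups. The sum of 6 naive or follicular B cell markers was 4532 to 9032 in cMyc+ early and 2493 to 2935 in cMyc+ lateCD23lo, and that of 6 plasma cell markers was 23488 to 30149 and 56149 to 90119.4, mostly Jchain. The sum of 11 myeloid markers was 218 to 413 and 768 to 1514, with Csf3r, S100a9 and Itgam at or under 3 reads in every library, and the sum of 9 T cell markers was 2164 to 3901 and 4002 to 5810, nearly all of it Lck. The correlation of gene deviations with GC content differed as well. In cMyc+ early libraries 1 to 4 it was -0.178, 0.224, -0.0987 and 0.182, and libraries 2 and 4 had the highest Cd22 and Ptpn6 values of that group. In cMyc+ lateCD23lo it was negative in every library (-0.173 to -0.0353). In cMyc+ prePB libraries 2 to 4 it was 0.136 to 0.297, with Cd22 at 2493 to 3844. The part of the marker sums and of GC content in the Cd22 and Ptpn6 values was not tested.

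The kinases Syk (chr13:52583173-52648792) and Btk (chrX:134542336-134583570), the adaptor Blnk (chr19:40928927-40994535) and the phospholipase Plcg2 (chr8:117498291-117635142) form the proximal relay between the receptor and calcium release. Their levels overlapped between all pairs of subpopulations. Blnk varied least of all members, from 9563 to 13093, and its difference of cMyc+ prePB from the mean of the other 3 was 0.04, with a 95% interval for the fold of 0.884 to 1.19. The widest interval of the 4 genes in that comparison was that of Syk (-0.05, fold 0.742 to 1.26), followed by Btk (-0.16, fold 0.693 to 1.16) and Plcg2 (-0.10, fold 0.764 to 1.14), so changes of a size within these intervals could not be told from no change. Ptpn6 gave -0.11 in the same comparison, with an interval for the fold of 0.703 to 1.21.

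Syk ranged from 1069 (cMyc+ lateCD23lo, library 4) to 2951 (cMyc+ lateCD23int, library 3). Btk, the Tec kinase downstream of SYK, ranged from 1318 (cMyc+ prePB, library 1) to 3181 (cMyc+ lateCD23int, library 3). Plcg2 ranged from 2112 to 3629, and its highest value came from the same lateCD23int library. Library 3 of cMyc+ lateCD23int was highest in its group for Syk, Btk, Plcg2, Cd22 and Ptpn6. Across genes, the deviations from the gene means in this library correlated with the GC content of the longest transcript at a Spearman rho of 0.254 and with its length at 0.186. The GC value was not particular to it, since library 4 of the same group had 0.2503 and the 16 libraries ran from -0.213 to 0.297, and its part in the levels was not tested.

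Several members varied together over the 16 libraries, which share depth and preparation, so the correlations are given as descriptions of log2 values without a test. Cd79b and Cd72 had r = 0.927, Cd79b and Lyn 0.863, Lyn and Cd72 0.855, and the 3 pairs of Cd79a with these genes lay between 0.812 and 0.825. Syk, Btk, Plcg2, Cd22 and Ptpn6 formed a second, looser group. Its highest pairs were Cd22 with Ptpn6 (0.839), Btk with Plcg2 (0.79), Syk with Cd22 (0.691) and Plcg2 with Ptpn6 (0.688). Its lowest were Plcg2 with Cd22 (0.495), Btk with Cd22 (0.482) and Syk with Plcg2 (0.321). Across these 2 groups r ran from -0.35 for Cd79b with Ptpn6 to 0.353 for Cd79a with Syk, with -0.0726 for Cd79b with Cd22 and 0.341 for Cd79a with Cd22. The highest pair across groups was thus above the lowest pair of the second group, so the split is not sharp. With the group means removed the same pairs gave 0.929 for Cd79b with Cd72, 0.781 for Cd22 with Ptpn6 and -0.577 for Cd79b with Ptpn6. The genes outside the list most like the remaining members were Id3 for Cd79a (0.929), Cd2ap for Lyn (0.917), Fam76b for Cd72 (0.960), Acap1 for Syk (0.909), Spryd3 for Btk (0.833), Casp8 for Blnk (0.797) and Arhgap19 for Plcg2 (0.835).

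**Figure D3:**
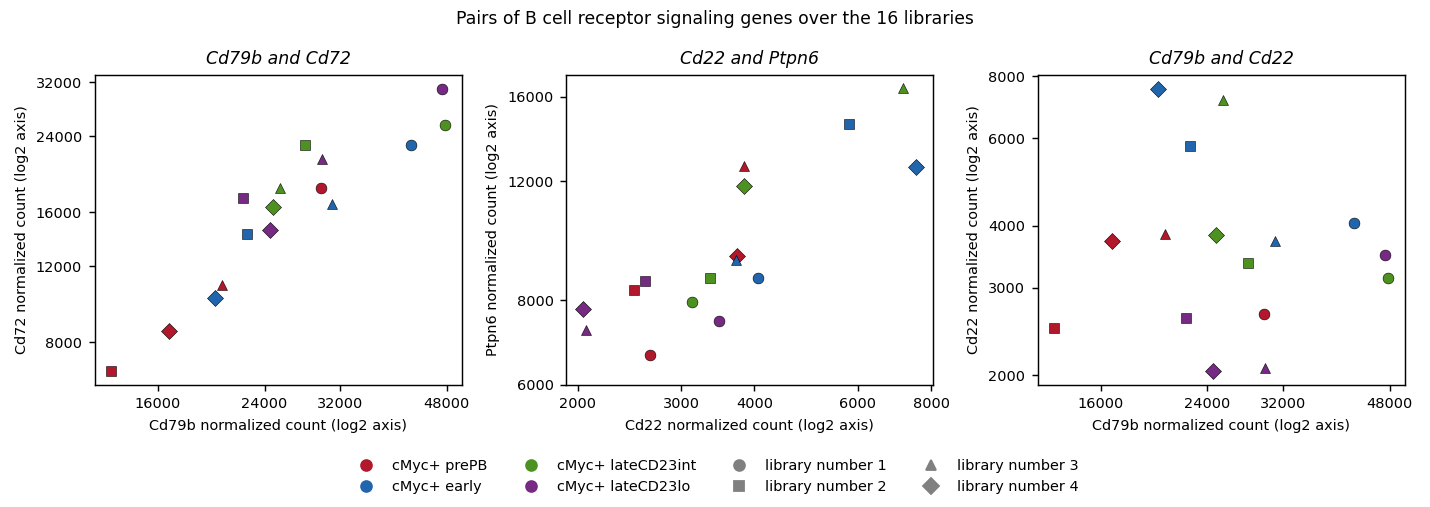
Normalized counts of pairs of members in the 16 libraries, on log2 axes, with color for the subpopulation and shape for the library number. Cd79b and Cd72 (r = 0.927) and Cd22 and Ptpn6 (r = 0.839) lie along a line, and Cd79b and Cd22 (r = -0.0726) do not.

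A wider list of 106 other genes of the pathway, of which 101 were tested, was compared in the same fit. In the comparison of cMyc+ prePB with the mean of the other 3, 2 of the 101 passed (both lower), and 21 had an unadjusted p under 0.05, of which 18 were lower, beside 0.312% and 11.1% of all tested genes. The median difference of the 101 was -0.08, against 0.003 for all tested genes. By arm, unadjusted p under 0.05 was found for 3 of 6 genes of the coreceptor and membrane group, 1 of 7 kinases and phosphatases, 5 of 18 adaptors, 1 of 11 genes of the PI3K arm, 1 of 9 of the PKC and NF-kB arm, 1 of 14 of the calcium and NFAT arm, 2 of 16 of the Ras and MAP kinase arm and 7 of 20 genes listed as inhibitory receptors and their adaptors. Of these genes, 1 of the 5 adaptors and 2 of the 7 in the inhibitory group were higher in cMyc+ prePB, and the rest were lower. The 7 include Fcrl1, and its placing among inhibitory receptors is that of the list and was not examined.

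The 2 genes that passed were Cr2 and Bank1. Cr2 encodes CD21/35, complement receptors of the coreceptor complex that were part of the gates of 3 of the 4 groups, so its RNA is no independent finding. It was 1057 to 2939 in cMyc+ prePB and 5463 to 9350 in cMyc+ early, with a difference from the mean of the other 3 of -1.71 ± 0.28 (limma adjusted p = 0.0067), and passed in all 28 alternatives. Bank1, an adaptor that binds LYN and the calcium channel of the endoplasmic reticulum, was 5941, 4466, 5155 and 4467 in cMyc+ prePB, below all libraries of the other groups, which ran from 6121 to 13758. Its difference from their mean was -0.84 ± 0.17 (limma adjusted p = 0.0343) and passed in 20 of 28 alternatives. It was lost without any 1 of cMyc+ prePB libraries 2, 3 and 4, cMyc+ early library 3 and cMyc+ lateCD23lo library 3 (-0.86 to -0.79, adjusted p = 0.0578 to 0.156). Against cMyc+ early alone it was -1.04 (adjusted p = 0.0450), and this call was lost without any 1 of 12 libraries (adjusted p = 0.0513 to 0.161), that is, all but cMyc+ prePB library 1, cMyc+ lateCD23int libraries 1 and 4 and cMyc+ lateCD23lo library 1.

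Nfatc1, a transcription factor driven by calcium and calcineurin, was the 1 gene of the wider list called between cMyc+ early and cMyc+ lateCD23lo. Its libraries were 996, 1490.2, 1059.6 and 822 in cMyc+ early and 3465, 2972, 2003 and 2103 in cMyc+ lateCD23lo, with no overlap. The difference was -1.27 ± 0.26 (limma adjusted p = 0.0476), lower in cMyc+ early, and it failed without any 1 of 12 libraries (adjusted p = 0.0509 to 0.168), all but cMyc+ prePB libraries 1 and 2, cMyc+ early library 2 and cMyc+ lateCD23int library 3.

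The other genes of the list with the smallest F test p did not pass, and their differences of cMyc+ prePB from the mean of the other 3 are given as values. Sla, an adaptor that tunes receptor levels, had -1.05 (adjusted p = 0.121), and Pecam1, an inhibitory adhesion receptor, -0.97 (adjusted p = 0.121), and both passed without cMyc+ prePB library 3 (-1.33 with adjusted p = 0.0498 and -1.27 with adjusted p = 0.0365). Fcrl1, an Fc receptor-like protein, had -0.63 (limma adjusted p = 0.117), Cd2ap -0.63 (limma adjusted p = 0.21) and Pag1, a membrane adaptor for the kinase CSK, -0.53 (limma adjusted p = 0.466). Of the 28 alternatives, Fcrl1 passed in 3, Cd2ap, Sla and Pecam1 in 2 each and Pag1 in 0.

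Genes that BCR signaling is known to induce were a list of 16, of which 13 were tested. The list includes Cd69, whose protein set the cMyc+ prePB gate, so it is no independent member of it (0.23 against the mean of the other 3, limma adjusted p = 0.799). Between cMyc+ prePB and the mean of the other 3, 2 of the 13 passed, in opposite directions, and 3 had an unadjusted p under 0.05, beside 0.312% and 11.1% of all tested genes. Ccnd2, which encodes the G1 cyclin D2, was 6412, 13639.5, 12710.1 and 11288 in cMyc+ prePB and 4280.2, 6965, 6611 and 6656 in cMyc+ early. It was 3158 to 4339 in cMyc+ lateCD23int and 1999 to 3325 in cMyc+ lateCD23lo. The difference from the mean of the other 3 was 1.50 ± 0.19 (limma adjusted p = 5.6e-04), and the call held in all 28 alternatives. Nfkbid, an atypical NF-kB inhibitor, was 313, 90.1, 124 and 156 in cMyc+ prePB and 256 to 912 in the other groups, a difference of -1.69 ± 0.30 (limma adjusted p = 0.0107). It failed without cMyc+ prePB library 2 (-1.44, adjusted p = 0.0685) or library 3 (-1.59, adjusted p = 0.0542). The median difference of the 13 was -0.12, against 0.003 for all tested genes.

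**Figure D4:**
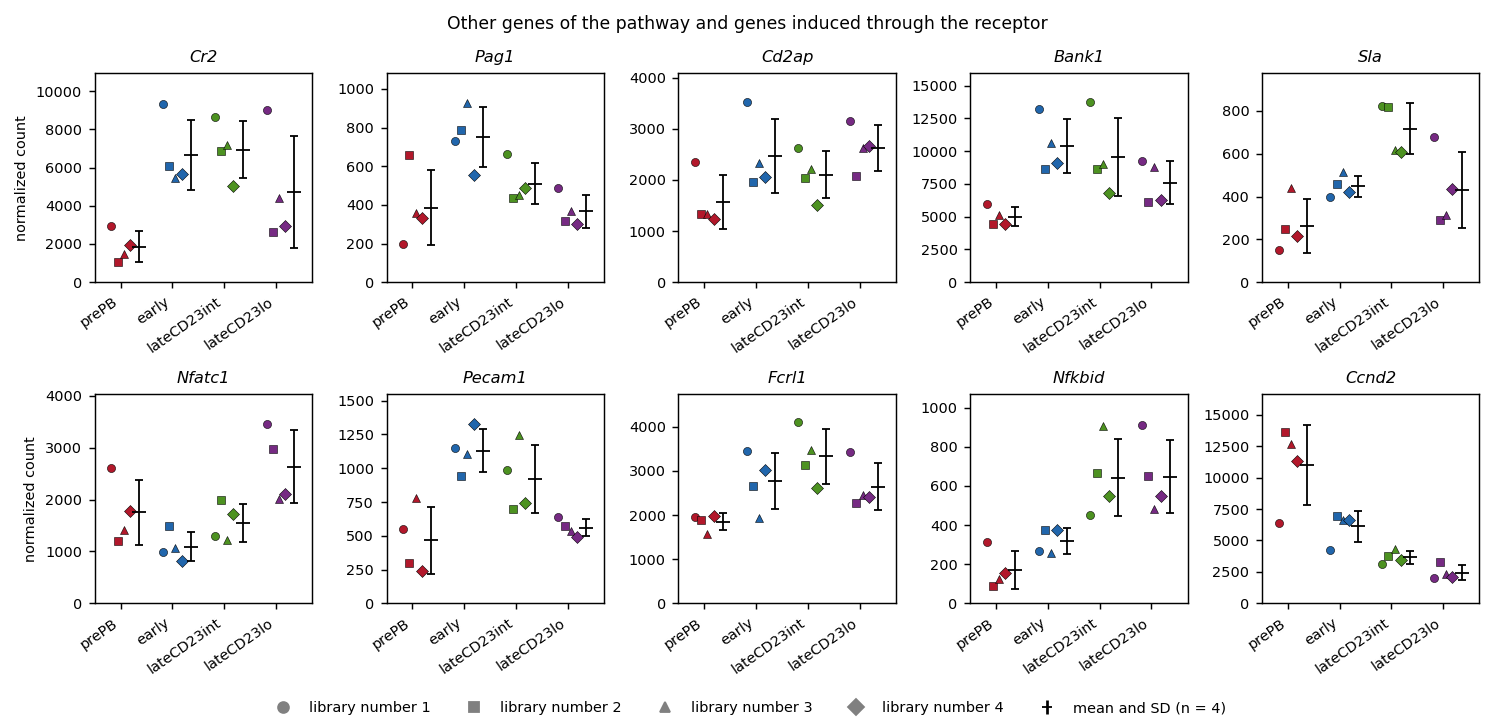
Normalized counts (linear axes from 0) of 8 genes of the wider pathway list and of the called receptor-induced genes Nfkbid and Ccnd2 in the 16 libraries, drawn as for the members. Cr2 and Bank1 are low and Ccnd2 is high in cMyc+ prePB, and Nfatc1 lies at 2003 or above in cMyc+ lateCD23lo and below that in cMyc+ early.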

How the data were processed

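RNA from the sorted samples was made into libraries with a low-input kit and sequenced. The submitters' processing notes name Trimmomatic 0.36, RSEM 1.2.31, STAR 2.5.2a, DESeq2 1.20.0, R 3.5.1 and the build GRCm38, without roles or order. The deposited values are a normalized signal, read counts per gene divided by the authors by 1 size factor per library. All values in every library came out as whole reads (100%, within 0.02 of a whole number) after division by the size of 1 read. Strand use in counting is not given in the sources used here, and Ptpn6, Cd72, Cd22 and Lyn share exonic bases with genes on the opposite strand.

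Genes averaging 10 or more over the libraries (12505) were fitted with limma 3.58.1 (R 4.3.3) on log2(value + 1), with a mean-variance trend, over all 16 libraries and without the library number. The tests were an F test, 6 pairwise contrasts and cMyc+ prePB against the mean of the other 3, each with Benjamini-Hochberg adjustment over all tested genes and a threshold of 0.05. edgeR 4.0.16 and DESeq2 1.42.0 were run on the recovered reads. The scripts were tested on simulated data. The members and lists were chosen with earlier results of these data known. Named genes were the members, every gene of the wider list called in the F test or a pairwise contrast, filled to 8 by the smallest F test p, and the tested gene with the highest Pearson correlation for each member. The cell type marker lists checked the sorted cells. The 6 markers of all B cells, Cd79a and Cd79b among them, summed to 85980 to 143370 in cMyc+ prePB and 110971 to 239069 elsewhere. The sums of the other lists were 484 to 1043 for dendritic cells, 0 to 122 for NK cells, 165 to 4954 for erythroid cells, 7.08 to 291 for platelets, and 1.02 to 165 for stromal and follicular dendritic cells. Intervals are 95% intervals and floors 3 reads, and the counting error covers counting only.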

Additional observations from a re-analysis of the deposited data

Results flagged for a closer look

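In groups of 4, a library was singled out where its gap to the nearest other library as a share of the range of the group exceeded Dixon's 95% critical value. Of 80 groups checked (10 members and 10 named genes in 4 subpopulations), 7 had such a library, and chance gives about 1 in 20. Cd79b stood apart in cMyc+ lateCD23int, where library 1 was highest at 47696. Btk was lowest in library 3 of cMyc+ early, at 1840.2, and Plcg2 was highest in library 3 of cMyc+ lateCD23int, at 3629. Of the other named genes, Cr2 was highest in library 1 of cMyc+ early (9350), Cd2ap in library 1 of cMyc+ prePB (2350.5) and Fcrl1 in library 1 of cMyc+ lateCD23lo (3433), and Ccnd2 was lowest in library 1 of cMyc+ early (4280.2). The number 1 libraries thus held 5 of the 7 values.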

How the results depend on the processing

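Of 230 counts of called members under the alternatives, 216 were 0 as in the fit without a block. Whether libraries of equal number share an animal or a sort was not tested. Over the 24 pairs of same-numbered libraries, deviations from the group means correlated at -0.129 to 0.174, with 5 pairs over 0.1. The mean correlation of these pairs was 0.051, and that of pairs of different number was -0.017. Of the 16 libraries, 10 correlated best with 1 of their own number, a hint from the data and not from the design. With the replicate block limma called 2 members in the F test (Cd72 and Cd79b), 3 against cMyc+ lateCD23int, 3 against cMyc+ lateCD23lo and 4 against the mean of the other 3 (Cd79a, Cd79b, Lyn and Cd72, adjusted p = 0.0032 to 0.0392), and edgeR with the replicate block called 2, 2, 2 and 4. Over all tested genes, the block took the calls from 51 to 173 in the F test, and those of cMyc+ prePB from 24 to 65 against cMyc+ early, 18 to 121 against cMyc+ lateCD23int, 33 to 192 against cMyc+ lateCD23lo and 39 to 211 against the mean of the other 3, and those between cMyc+ early and cMyc+ lateCD23lo from 35 to 90. The share of the spread of Cd79b that lay between numbers was 64.5% (median of all tested genes 21.8%), and cMyc+ prePB was the lowest library of its number in all 4 numbers for 3 of the 10 members and 2.06% of all tested genes. DESeq2 called 1 member in the F test and 1 between cMyc+ early and cMyc+ lateCD23lo, and in these 6 tests, in the same order, it called 265, 131, 130, 270, 225 and 170 genes and edgeR 29, 8, 11, 31, 36 and 23. Without the trend limma called 25, 12, 9, 28, 30 and 24, without a filter on low values 31, 4, 9, 21, 27 and 29, and with only the groups compared in the fit 0, 8, 13 and 20 in the 4 pairwise tests. Leaving out 1 library at a time gave 0 to 1 members against cMyc+ lateCD23lo and 0 to 1 against the mean of the other 3, and leaving out number 1 from all groups gave 1 and 1 (and 204 genes of all tested against cMyc+ lateCD23lo). Over all tested genes, leaving out 1 library gave 31 to 68 calls in the F test, 3 (without cMyc+ early library 4) to 30 against cMyc+ early, 7 to 31 against cMyc+ lateCD23int, 16 (without cMyc+ prePB library 4) to 153 (without cMyc+ prePB library 1) against cMyc+ lateCD23lo, 24 and 79 without the same 2 libraries against the mean of the other 3, and 17 to 50 between cMyc+ early and cMyc+ lateCD23lo.

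Of 996 differences of named genes under the alternatives, 874 kept direction and side of the threshold, 86 lost the call, 27 gained it and 9 changed sign, all 9 in cMyc+ prePB against the mean of the other 3 and with values near 0. Syk became 0.00218 with libraries rescaled to the same total, 0.0971 without number 1, and was positive without cMyc+ prePB library 1, cMyc+ lateCD23int library 3 or cMyc+ lateCD23lo library 1. Leaving out 1 library at a time, Syk ran from -0.125 to 0.0704, Btk from -0.237 to 0.0206 and Ptpn6 from -0.28 to 0.0297 (both highest without cMyc+ prePB library 1), and Blnk from -0.0086 to 0.085 (below 0 without cMyc+ prePB library 2 or 3). The cause of these changes was not tested.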
